A study of Mus musculus with 6 samples.

Results

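The genes described here encode enzymes that interconvert alcohols, aldehydes, ketones and acids: the aldehyde dehydrogenases (Aldh), the alcohol dehydrogenases (Adh) and the aldo-keto reductases (Akr). Members were the genes whose single symbol in the array's annotation begins with Aldh, Adh or Akr followed by a digit. Aldh18a1, which acts in proline synthesis, and Akr1d1, a bile acid reductase, were left out. This gave 41 of 19938 genes, of which 20 were aldehyde dehydrogenases, 7 alcohol dehydrogenases and 14 aldo-keto reductases. The rule uses no measured value. Where a gene had several probe sets, the one with the highest mean over the 6 arrays was used, and no member was removed for a low signal.

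The livers came from C57BL/6 mice, a standard inbred strain, that had eaten a high fat diet (HFD) or a regular diet (RD) freely for 2 days. Each diet had 3 biological replicates with 1 array each, and values are log2 signals, so that a difference of 1 is a doubling of signal. The titles of all samples add NI, a label with no known meaning here, and the mice's age and sex and the make-up of the diets were not used here. The 10 hepatocyte markers, albumin among them, had mean log2 signals of 14.01 to 14.08 on the HFD arrays and 14.05 to 14.07 on the RD arrays. No hepatocyte marker passed the test between diets (2 at an unadjusted p under 0.05 in limma). Most of these markers lay near the top of the signal range, where array signals level off. The test could therefore miss a change in them, and it cannot show that the hepatocyte content was the same. HFD replicate 1 stood apart from the other HFD arrays, with a score on the first principal component of 21.5 against 12.7 and 12.6, while the RD arrays lay between -16.5 and -14.5.

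As background, alcohol dehydrogenases oxidise ethanol, retinol and other alcohols to aldehydes, and aldehyde dehydrogenases carry these on to acids. Liver is the main site of ethanol oxidation, and it also uses aldehyde dehydrogenases to finish the breakdown of several amino acids. Aldo-keto reductases work mostly the other way, using NADPH to reduce aldehydes and ketones, among them steroids and lipid peroxidation products. Several members are known targets of NRF2, the transcription factor of the oxidant response, which binds antioxidant response elements.

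Of the 41 members, 3 were higher and 3 lower after HFD (limma, Benjamini-Hochberg adjusted p under 0.05 over all genes), which is 14.6% of them. Over all 19938 genes 5.35% passed, with 3.11% higher and 2.24% lower. The risers were Aldh3b1, which oxidises lipid-derived aldehydes, and the reductases Akr1c19 and Akr1b8. The fallers were Aldh1b1, a mitochondrial acetaldehyde dehydrogenase, Aldh1l1, the cytosolic 10-formyltetrahydrofolate dehydrogenase, and Akr1c20. None of the 7 alcohol dehydrogenases passed in limma (1 at an unadjusted p under 0.05). The members were brighter than most genes, with 29 of 41 above the median of all gene values, against 9967 of 19938 genes. When only this brighter part was tested, close to those 9967 genes and 29 members, 862 genes were higher and 619 lower. Among them were 2 and 4 members, and Akr1b8 was too dim to be tested there. More genes thus passed in the brighter part than over all genes, so 5.35% understates the share among genes as bright as most members. Members were not matched more closely to genes of like signal. Among the members the largest change was 1.96-fold, that of Aldh1b1. Of the genes left out of the members, Aldh18a1 was higher in HFD by 0.89 on the log2 scale (limma adjusted p = 0.0049). Akr1d1 differed by 0.00. The counts of members that rose and fell thus depend on leaving out Aldh18a1.

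Promoter sequence is shown for the 5 of these 6 genes with an entry in RefSeq's table (build GRCm38.p6), so that the regions ahead of the genes that rose and fell can be compared. Each line holds the 250 bases before the start of the transcript, 5′ to 3′ on the gene's strand. Capitals mark GC boxes (GGGCGG) and CCAAT boxes, read on both strands.
Aldh3b1 (higher, chr19:3929779-3930028, minus strand): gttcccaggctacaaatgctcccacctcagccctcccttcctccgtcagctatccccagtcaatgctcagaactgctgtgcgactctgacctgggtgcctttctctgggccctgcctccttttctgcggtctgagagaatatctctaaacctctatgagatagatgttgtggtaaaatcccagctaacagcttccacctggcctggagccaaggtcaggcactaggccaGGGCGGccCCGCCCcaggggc
Akr1c19 (higher, chr13:4233490-4233739, plus strand): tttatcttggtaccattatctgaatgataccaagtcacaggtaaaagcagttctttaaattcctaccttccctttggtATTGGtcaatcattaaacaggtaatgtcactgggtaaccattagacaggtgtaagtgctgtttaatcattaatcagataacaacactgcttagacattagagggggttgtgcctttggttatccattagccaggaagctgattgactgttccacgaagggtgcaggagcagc
Akr1b8 (higher, chr6:34353896-34354145, plus strand): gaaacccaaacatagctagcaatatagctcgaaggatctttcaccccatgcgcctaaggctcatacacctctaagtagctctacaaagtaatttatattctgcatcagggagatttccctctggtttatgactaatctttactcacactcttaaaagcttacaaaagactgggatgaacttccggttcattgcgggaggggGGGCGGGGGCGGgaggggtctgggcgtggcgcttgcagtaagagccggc
Aldh1b1 (lower, chr4:45798772-45799021, plus strand): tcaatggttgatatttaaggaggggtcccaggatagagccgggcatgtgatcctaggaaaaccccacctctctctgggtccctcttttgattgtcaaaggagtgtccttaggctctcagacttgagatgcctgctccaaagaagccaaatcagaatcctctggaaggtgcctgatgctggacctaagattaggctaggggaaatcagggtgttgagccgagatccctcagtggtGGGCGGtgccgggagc
Aldh1l1 (lower, chr6:90550543-90550792, plus strand): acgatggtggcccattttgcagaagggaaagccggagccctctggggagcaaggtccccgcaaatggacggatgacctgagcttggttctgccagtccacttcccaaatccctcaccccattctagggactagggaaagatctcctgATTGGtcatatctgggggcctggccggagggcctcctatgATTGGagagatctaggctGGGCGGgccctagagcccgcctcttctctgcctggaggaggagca
GC boxes stood in 4 of these 5 windows, those of Aldh3b1, Akr1b8, Aldh1b1 and Aldh1l1, so they occurred ahead of risers and fallers alike. Among the 32 members with an entry 10 had one, against 32.7% of all 32851 windows. A CCAAT box was found for 18 of the 32, against 33.8% of all windows. The core letters of the antioxidant response element, TGACNNNGC, were found for 4 of the 32 (Adh6a, Akr1cl, Aldh1a2 and Aldh9a1) and in none of the 5 windows printed, against 10.2% of all windows. A TATA box (TATAAA) was found for 6 of the 32, Akr1b8 among them, against 12.4%. All these motifs were searched on both strands, and none contains another. Members were counted as genes with a motif in any of their windows, while the shares over all are of single windows. These matches describe the letters of the windows only.

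**Figure D1:**
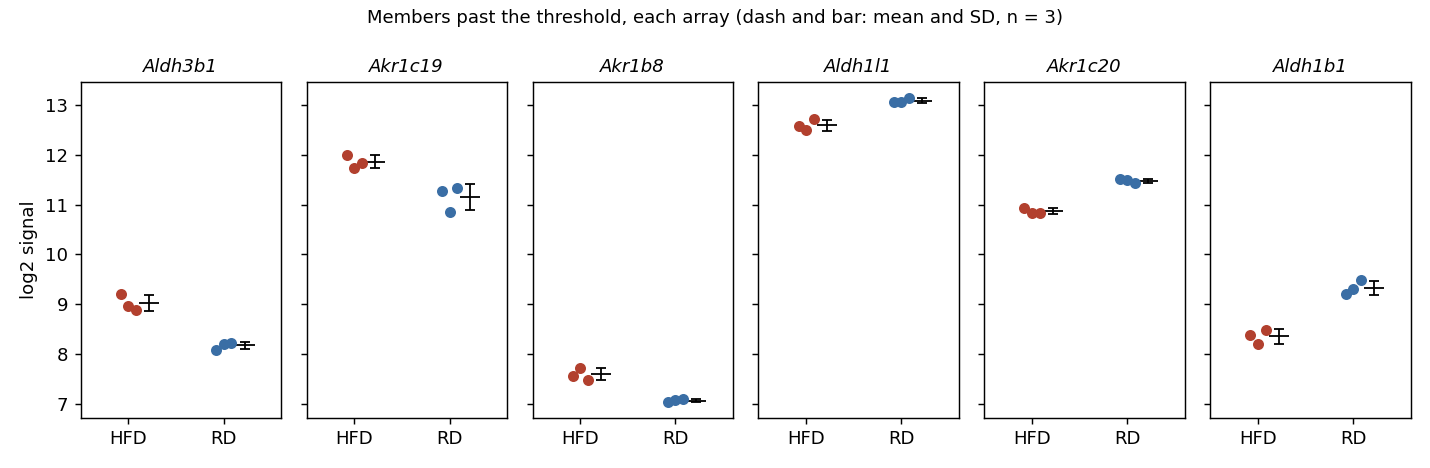
Log2 signal of the 6 members that passed the test, with 1 point per array and the mean and SD of the 3 arrays of each diet beside them (HFD left, RD right). The 3 HFD points of each gene lie wholly above or wholly below its 3 RD points. Signals of different genes come from different probes and are not comparable.

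The acetaldehyde dehydrogenases of the mitochondrion were measured by Aldh2 and Aldh1b1. Aldh1b1 (probe set 10504606) had log2 signals of 8.39, 8.20 and 8.49 in HFD livers, against 9.21, 9.31 and 9.49 in RD livers. The highest HFD value lay below the lowest RD value, and the means were 8.36 ± 0.15 in HFD and 9.33 ± 0.14 in RD (SD, n = 3 each). Its difference, HFD minus RD, was -0.97 ± 0.10 on the log2 scale (SE; limma adjusted p = 0.0016), a 1.96-fold fall. Aldh2 (probe set 10533345), the main acetaldehyde dehydrogenase of liver, had 13.51, 13.50 and 13.67 in HFD livers, against 13.66, 13.78 and 13.60 in RD livers. Its groups overlapped, and the difference was -0.12 ± 0.08 (adjusted p = 0.48), with a 95% interval of -0.30 to 0.06. That interval does not reach the one of Aldh1b1, which ran from -1.20 to -0.75. Aldh2 is much brighter than Aldh1b1, and array signals level off near the top of their range. Whether that narrowed the difference of Aldh2 was not tested.

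Aldh1l1 and its mitochondrial counterpart Aldh1l2 oxidise 10-formyltetrahydrofolate to tetrahydrofolate and carbon dioxide, yielding NADPH. Aldh1l1 (probe set 10540034) had log2 signals of 12.57, 12.49 and 12.71 in HFD livers, against 13.06, 13.06 and 13.15 in RD livers. All HFD values lay below all RD values, and the gene fell by 0.50 ± 0.08 on the log2 scale (adjusted p = 0.0096), or 1.41-fold. Aldh1l2 had 6.20, 6.39 and 6.52 in HFD livers, against 6.05, 6.15 and 6.10 in RD livers. These groups did not overlap either, but the difference of 0.27 ± 0.09 did not pass (adjusted p = 0.13). Its signal lay below the median of all gene values, 7.54, and detection calls were not used here, so background could make up part of it.

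The class 3 enzymes oxidise fatty and lipid-derived aldehydes, and 1 of the 5 measured passed. Aldh3b1 (probe set 10464560) had log2 signals of 9.20, 8.97 and 8.88 in HFD livers, against 8.09, 8.21 and 8.22 in RD livers. The lowest HFD value was above the highest RD value, with means of 9.02 ± 0.16 in HFD and 8.18 ± 0.07 in RD (SD, n = 3 each). It rose by 0.84 ± 0.09 on the log2 scale (adjusted p = 0.0023), or 1.79-fold. HFD replicate 1 was its highest array, and without it the difference was 0.75 (adjusted p = 0.0047). Its neighbours along the chromosome, Aldh3b3 and Aldh3b2, are close relatives. Aldh3b3 differed by 0.21 ± 0.07 (adjusted p = 0.15) and Aldh3b2 by -0.19 ± 0.08 (adjusted p = 0.23). The probe sets of Aldh3b3 disagreed in sign: the 2 dimmer ones gave -0.29 ± 0.16 and -0.07 ± 0.15, and the mean of all 3 gave -0.05. A further probe set assigned to both Aldh3b2 and Aldh3b3 gave -0.25 ± 0.10 (adjusted p = 0.28 over all rows). Aldh3a2, the fatty aldehyde dehydrogenase of the endoplasmic reticulum, differed by 0.01 ± 0.08, and Aldh3a1, best known from cornea and stomach, by 0.08 ± 0.07.

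The retinaldehyde dehydrogenases make retinoic acid, and none of the 4 genes of this group passed in limma (0 at an unadjusted p under 0.05). Aldh1a1, the liver's main cytosolic form, averaged 13.32 ± 0.13 in HFD livers and 13.43 ± 0.01 in RD livers (SD, n = 3 each), a difference of -0.11 ± 0.08 (SE). Aldh1a7, its close relative, differed by -0.10 ± 0.08, Aldh1a2 by 0.20 ± 0.12 and Aldh1a3 by -0.05 ± 0.08. Aldh1a1 and Aldh1a7 are near copies of each other, so their separate signals are uncertain. Aldh16a1, whose mammalian protein lacks the catalytic cysteine, differed by 0.00 ± 0.07.

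The 6 dehydrogenases that act in amino acid and amine breakdown all had differences below 0, from -0.25 to -0.05, and none passed the test (1 at an unadjusted p under 0.05). All 6 also lay below 0 after quantile normalization and after median centring. Those scalings moved the median difference of all genes only from -0.003 to 0.006 and 0.018, so the signs had little room to change. Differences below 0 were found for 27 of all 41 members and 10133 of 19938 genes. Aldh9a1 (probe set 10351414), which makes a carnitine precursor from an aldehyde, came closest. It had log2 signals of 12.40, 12.43 and 12.37 in HFD livers, against 12.63, 12.66 and 12.66 in RD livers. These groups were far apart for their spread of 0.03 and 0.02 (SD, n = 3 each), with a difference of -0.25 ± 0.06, or 1.19-fold (adjusted p = 0.052). The adjusted p was under 0.05 for 3 alternatives, those with the brighter genes only (0.019), an intensity trend with a robust prior (0.0069) and an unmoderated linear model (0.047), and ran up to 0.14 over the others. Aldh7a1 (probe set 10458960), which acts in lysine breakdown, had 13.61, 13.56 and 13.57 in HFD livers, against 13.63, 13.63 and 13.69 in RD livers. Its values did not overlap, yet the difference was only -0.07 ± 0.06 (adjusted p = 0.59). The mean signal of Aldh7a1, 13.61, was like that of Aldh2, 13.62. Whether levelling off near the top of the range narrowed its difference was not tested. Differences were -0.14 ± 0.08 for Aldh4a1, of proline breakdown, and -0.12 ± 0.07 for Aldh5a1, of GABA breakdown. For Aldh6a1, of valine breakdown, it was -0.09 ± 0.06, and for Aldh8a1, of tryptophan breakdown, -0.05 ± 0.07.

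**Figure D2:**
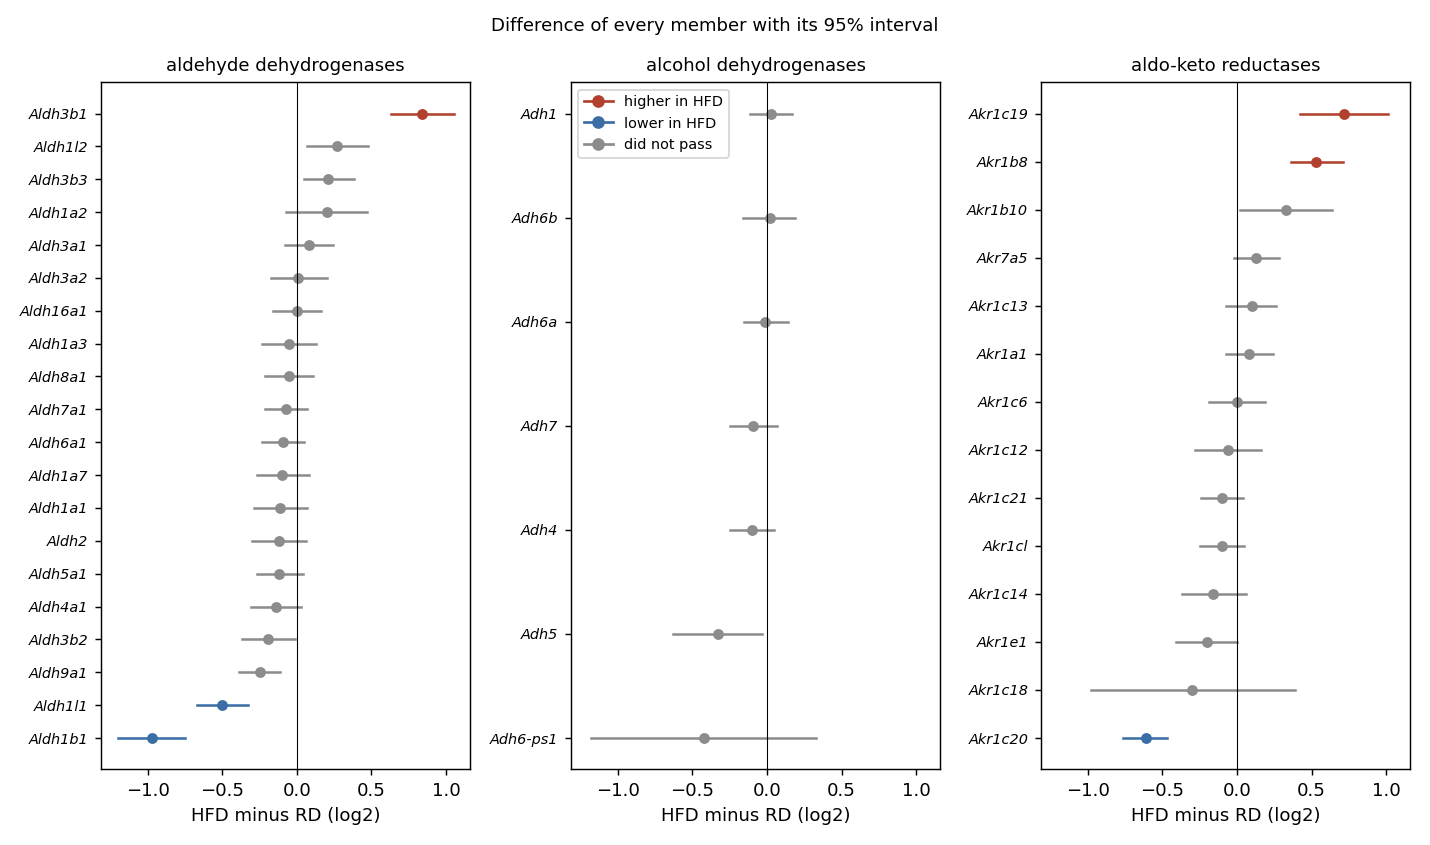
Difference of each of the 41 members on the log2 scale, HFD minus RD, with its 95% interval from limma, by family. The 3 members in red were higher in HFD, the 3 in blue lower, and the 35 in grey did not pass. Adh6-ps1 and Akr1c18 have the widest intervals.

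The 7 alcohol dehydrogenase genes lie side by side on 1 chromosome, and their differences ran from -0.42 to 0.03 on the log2 scale. Adh1 (probe set 10496438), the classical ethanol-oxidising enzyme, had log2 signals of 14.31, 14.28 and 14.24 in HFD livers, against 14.27, 14.24 and 14.24 in RD livers. The groups overlapped and the difference was 0.03 ± 0.06 (adjusted p = 0.87), with a 95% interval of -0.11 to 0.17. Array signals level off near the top of their range, and whether that narrowed the difference of Adh1 was not tested. Adh5 (probe set 10496475) is the glutathione-dependent formaldehyde dehydrogenase that also breaks down S-nitrosoglutathione. It had 12.14, 12.11 and 12.50 in HFD livers, against 12.69, 12.70 and 12.35 in RD livers. HFD replicate 3 lay above RD replicate 3, and the difference of -0.33 ± 0.13 did not pass (adjusted p = 0.21).

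Adh4, which also acts on retinol, averaged 12.25 ± 0.04 in HFD livers and 12.35 ± 0.06 in RD livers, a difference of -0.10 ± 0.07 (adjusted p = 0.45). Adh7, an enzyme of stomach and other epithelia, differed by -0.09 ± 0.07. Adh6a and Adh6b had dim signals between 5.42 and 5.88 on all arrays, with differences of -0.01 ± 0.06 and 0.02 ± 0.08. Adh6-ps1, a transcribed pseudogene, varied most, at 9.79, 10.63 and 9.11 in HFD livers, against 10.60, 10.09 and 10.13 in RD livers. The difference of -0.42 ± 0.33 (adjusted p = 0.55) turned on single arrays, being -0.82 without HFD replicate 2 and -0.06 without HFD replicate 3.

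Among the aldo-keto reductases, 2 of 14 rose and 1 fell. The changed Akr1c genes lie in 1 cluster of 8 members, many of which encode hydroxysteroid dehydrogenases, and they moved in opposite directions. Akr1c19 (probe set 10403312) had log2 signals of 12.00, 11.74 and 11.84 in HFD livers, against 11.27, 10.85 and 11.33 in RD livers. RD replicate 2 was the lowest array, and no HFD value fell within the RD range. It rose by 0.72 ± 0.13 on the log2 scale (adjusted p = 0.020), or 1.64-fold. Without HFD replicate 1 it stood at 0.65 and the call was lost (adjusted p = 0.065). Leaving out HFD replicate 3 (0.73, adjusted p = 0.059) or RD replicate 1 (0.78, adjusted p = 0.053) lost it too. It was also lost when every row of the table was tested (adjusted p = 0.086).

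Akr1c20 (probe set 10407456) had 10.93, 10.84 and 10.83 in HFD livers, against 11.52, 11.49 and 11.44 in RD livers. The groups were well apart, at 10.87 ± 0.06 in HFD and 11.48 ± 0.04 in RD (SD, n = 3 each), and the gene fell by 0.61 ± 0.06 on the log2 scale (adjusted p = 0.0018), or 1.53-fold.

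Between Akr1c19 and Akr1c20 in the cluster lie Akr1c12 and Akr1c6, which did not pass. Akr1c6 (probe set 10403322), the 17-beta-hydroxysteroid dehydrogenase of mouse liver, had 13.19, 13.15 and 12.93 in HFD livers, against 13.04, 13.11 and 13.13 in RD livers. Its difference was 0.00 ± 0.08 (adjusted p = 0.99), with a 95% interval of -0.19 to 0.19. Akr1c12 differed by -0.06 ± 0.10, Akr1c13 by 0.10 ± 0.07, and Akr1c14, a 3-alpha-hydroxysteroid dehydrogenase, by -0.16 ± 0.10. Akr1c21 differed by -0.10 ± 0.06 at dim signals of 4.57 to 4.73, and Akr1cl, on another chromosome, by -0.10 ± 0.07. Akr1c18, the 20-alpha-hydroxysteroid dehydrogenase, had 5.32, 5.16 and 6.43 in HFD livers, against 5.88, 5.72 and 6.20 in RD livers. Its difference was -0.30 ± 0.30 (adjusted p = 0.66), and -0.69 without HFD replicate 3 (adjusted p = 0.052). The genes of the Akr1c cluster are close copies, so probe sets may pick up more than 1 of them.

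**Figure D3:**
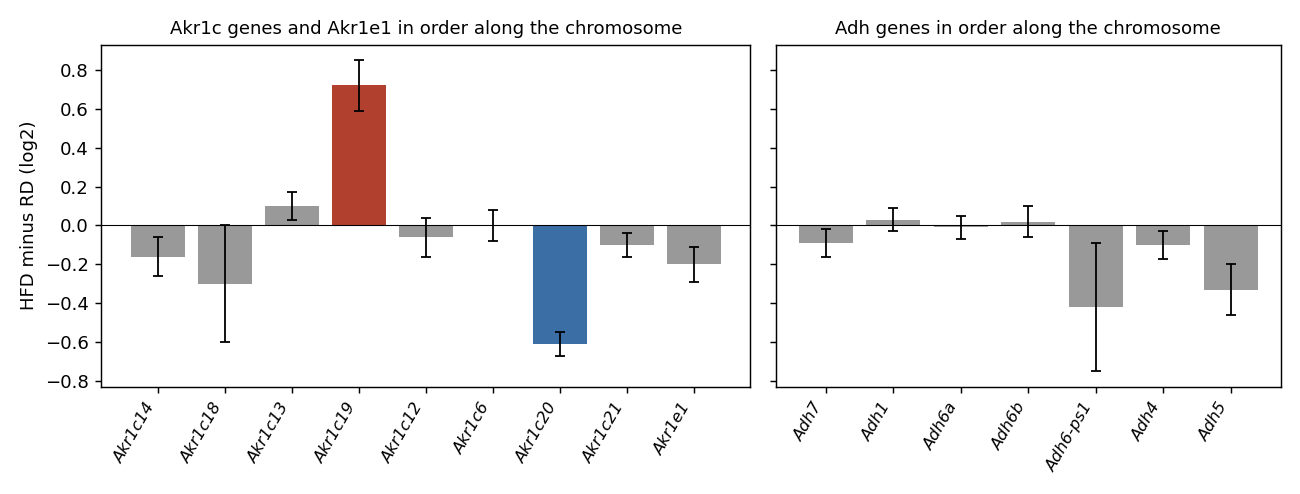
Difference on the log2 scale, HFD minus RD, with its SE, for the Akr genes of chromosome 13 (left) and the Adh genes of chromosome 3 (right), in their order along the chromosome in RefSeq. Akr1c19 (red) rose by 0.72 and Akr1c20 (blue) fell by 0.61, while Akr1c6 next to it stood at 0.00. No Adh gene passed.

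Akr1b8 and its neighbour Akr1b10 reduce lipid-derived aldehydes and retinaldehyde. Akr1b8 (probe set 10537146) had log2 signals of 7.57, 7.73 and 7.49 in HFD livers, against 7.04, 7.07 and 7.09 in RD livers. All HFD values exceeded all RD values, and the gene rose by 0.53 ± 0.08 on the log2 scale (adjusted p = 0.0080), or 1.45-fold. The RD values and HFD replicate 3 lay below the median of all gene values, 7.54, and the other HFD values not far above it. Background could make up part of all these signals and hold the fold down. Akr1b10 had 7.94, 7.50 and 7.48 in HFD livers, against 7.13, 7.38 and 7.42 in RD livers. These did not overlap, but HFD replicate 1 stood apart, and the difference of 0.33 ± 0.13 did not pass (adjusted p = 0.22). Without that array it was 0.18. The mean signal of Akr1b10 also lay below the median of all gene values, so the same limit holds for it.

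The general aldehyde reductases differed little. Akr1a1 (probe set 10515352), which in mice also makes a precursor of vitamin C, had 13.26, 13.25 and 13.32 in HFD livers, against 13.23, 13.12 and 13.23 in RD livers. The HFD values lay just above the RD values, and the difference was 0.08 ± 0.07 (adjusted p = 0.55). Akr7a5, an aflatoxin aldehyde reductase, differed by 0.13 ± 0.07 (adjusted p = 0.33), and Akr1e1, which reduces anhydrofructose, by -0.20 ± 0.09 (adjusted p = 0.25).

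By family, 14 of 20 aldehyde dehydrogenases, 5 of 7 alcohol dehydrogenases and 8 of 14 aldo-keto reductases had a difference below 0, against 10133 of all 19938 genes. The median differences were -0.08, -0.09 and -0.03 in that order, against 0.00 over all genes. Without HFD replicate 3 the median of the aldo-keto reductases was 0.04, and after median centring 7 of them lay below 0. HFD and RD values did not overlap for 20 of the 41 members, 8 above and 12 below, where 25.7% of all genes did not overlap. That comparison was not matched for signal either. For 31 of the 35 members that did not pass, the 95% interval lay within 0.5 of 0 on the log2 scale, that is under 1.41-fold. The exceptions were Adh5, Adh6-ps1, Akr1b10 and Akr1c18. For bright members that did not pass, Akr1a1 and Akr1c6 among them, levelling off of the signal could narrow a difference, which was not tested.

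**Figure D4:**
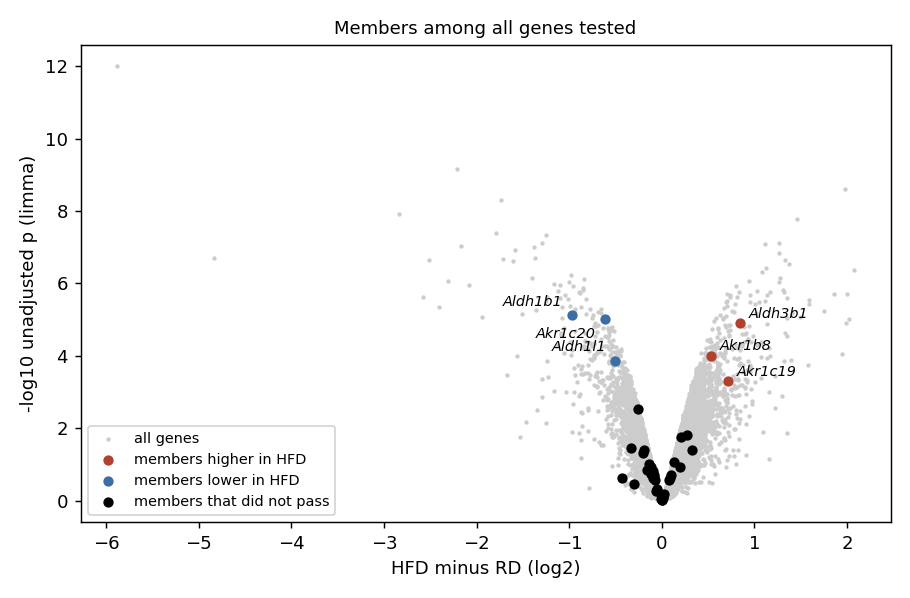
Difference on the log2 scale (HFD minus RD, x axis) against -log10 of the unadjusted limma p (y axis) for 19938 genes in grey, with the 41 members on top. The 3 risers are in red, the 3 fallers in blue and the other members in black, most of which sit near a difference of 0.

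An unmoderated linear model, which uses each gene's own spread alone, kept only the call of Akr1c20 among the 6 (adjusted p = 0.038), with adjusted p from 0.074 to 0.17 for the others. Apart from Akr1c19, each of the 6 calls held when any 1 array was left out, with adjusted p up to 0.041.

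Of 18 carbonyl reductases and retinol dehydrogenases, which act on related substrates, 4 rose and 3 fell, with a median difference of 0.03. Cbr1, a carbonyl reductase that uses NADPH, averaged 12.35 ± 0.18 in HFD livers and 10.97 ± 0.03 in RD livers (SD, n = 3 each), a 2.60-fold rise (adjusted p = 2.7e-04). Cbr3 rose 3.01-fold (adjusted p = 0.0010), with RD signals of 5.94, 6.30 and 6.38 below the median of all gene values, 7.54, so background could hold that fold down. Rdh16, a retinol and steroid dehydrogenase, averaged 10.46 ± 0.17 in HFD livers and 11.51 ± 0.03 in RD livers, a 2.07-fold fall (adjusted p = 7.6e-04), and Rdh11 fell 1.76-fold. The difference between these lists and the members was not tested.

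Of 14 measured partner enzymes of alcohol, aldehyde and polyol metabolism 2 rose and 3 fell, with a median of -0.03. The epoxide hydrolase Ephx1 rose 1.71-fold (adjusted p = 0.0014) and the aldehyde oxidase Aox1 1.67-fold (adjusted p = 0.0029). Aox3, its neighbour and chosen after its values were seen, had 12.31, 12.63 and 12.10 in HFD livers, against 13.08, 12.87 and 12.90 in RD livers. It fell by 0.61 ± 0.13 on the log2 scale (adjusted p = 0.035), a call that was lost on leaving out any single array but HFD replicate 2, with adjusted p reaching 0.13. Acss2, which turns acetate into acetyl-CoA, fell 1.98-fold and the fructokinase Khk 1.35-fold. The other ethanol-oxidising enzymes, Cyp2e1 (-0.04 ± 0.06) and catalase, Cat (-0.02 ± 0.06), likewise chosen after their values were seen, did not pass. Their HFD means of 14.19 and 14.30 also lay near the top of the range, where a difference could be narrowed.

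**Figure D5:**
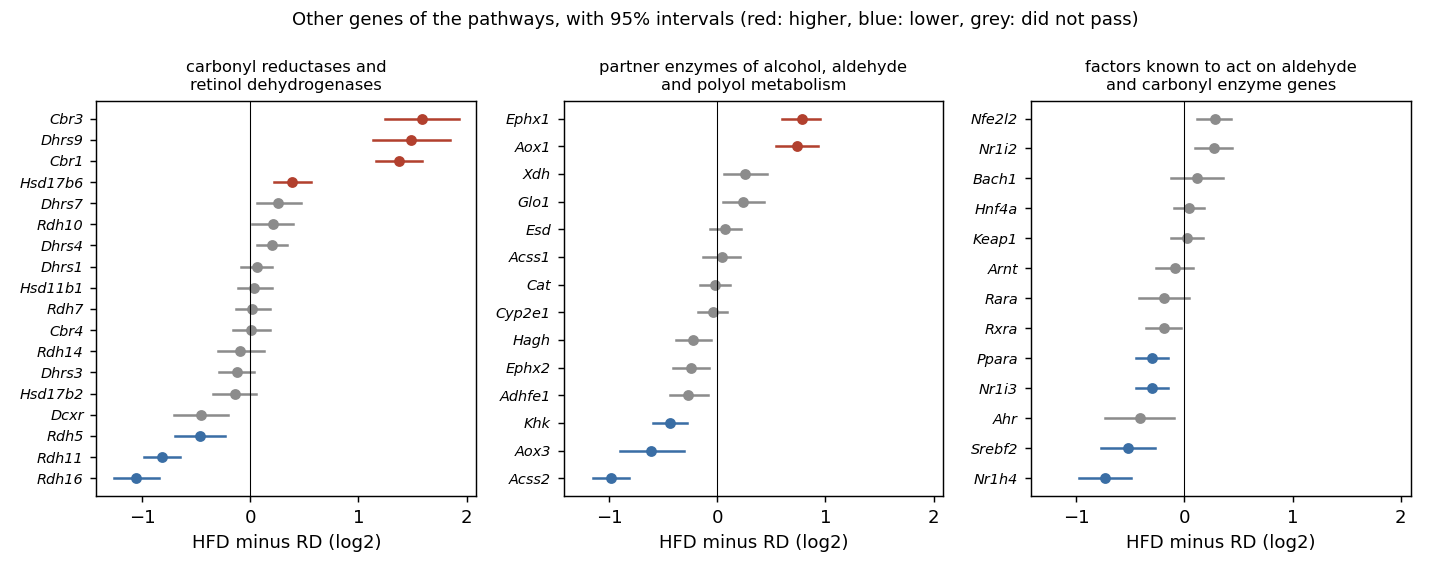
Difference on the log2 scale, HFD minus RD, with 95% intervals, for 18 carbonyl reductases and retinol dehydrogenases, 14 partner enzymes and 13 regulators. Red points were higher in HFD, blue points lower, and grey points did not pass. Cbr3, Dhrs9 (named for its place here) and Cbr1 lie farthest to the right.

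Of 13 factors known to act on such genes 0 rose and 4 fell (limma; 8 of the 13 at an unadjusted p under 0.05). Nr1h4, the bile acid receptor, fell 1.66-fold (adjusted p = 0.0078). Srebf2, the regulator of sterol genes, fell 1.43-fold, and the receptors Nr1i3 and Ppara 1.23-fold each. Neither the call of Nr1i3 nor that of Ppara held without any 1 of the arrays (adjusted p reaching 0.12), and that of Srebf2 held only without RD replicate 3. The factors' count was 1 without HFD replicate 1, HFD replicate 2, RD replicate 1 or RD replicate 2, and 2 without either other array. The 2 without HFD replicate 3 were Nr1h4 and Ahr, the aryl hydrocarbon receptor, which did not pass over all arrays and stood at -0.58 there (adjusted p = 0.026). Nfe2l2, the gene of NRF2, was picked for its values and had 11.73, 11.71 and 11.71 in HFD livers, against 11.45, 11.35 and 11.51 in RD livers. That difference of 0.28 ± 0.07 did not pass (adjusted p = 0.054), and Keap1, the inhibitor of NRF2 and picked likewise, differed by 0.02 ± 0.06.

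Markers of other liver cells moved with diet beside these changes. In bulk tissue, a change in the number of cells of a type and a change in RNA per cell cannot be told apart. Of 10 Kupffer cell markers 6 rose, including Slc40a1 (0.61 ± 0.07) and Cd5l (0.85 ± 0.12), and their mean log2 signal was 10.15 to 10.57 on the HFD arrays and 9.76 to 9.85 on the RD arrays. HFD replicate 1 was highest among the HFD arrays for the Kupffer markers Marco (8.08 against 7.18 and 7.27) and Adgre1 (10.78 against 10.05 and 10.13), both picked for their values. Among the HFD arrays, Slc40a1, Clec4f and Cd163 were instead highest in HFD replicate 3, and the other Kupffer markers listed in HFD replicate 1. Slc40a1 was lowest in HFD replicate 1 (12.03 against 12.06 and 12.20). HFD replicate 1 was also the highest array for Aldh3b1, Akr1c19 and Akr1b10, while Akr1b8 was highest in HFD replicate 2 (7.73). The same array was highest for other members that did not pass, among them Adh1, Aldh3b3, Akr1c6 and Akr1c12. It was highest for the hepatocyte markers Hpx and Serpina1c too, while other members and hepatocyte markers were highest in other arrays. A peak in HFD replicate 1 was thus not particular to the members that rose. Without HFD replicate 1, 6 Kupffer markers passed. All 5 measured cholangiocyte markers rose, by 0.29 to 0.70, with mean signals of 7.50 to 7.67 on the HFD arrays and 7.04 to 7.12 on the RD arrays. Tspan8 rose by 0.60 ± 0.08 and Epcam by 0.54 ± 0.10. The mean signals of Tspan8, Epcam, Krt7 and the Kupffer marker Marco lay below the median of all gene values, 7.54. Background could therefore make up part of them. The Kupffer count was 2 without RD replicate 1 or 2 and 3 without RD replicate 3 or HFD replicate 3. The cholangiocyte count was 1 without HFD replicate 1 or RD replicate 1 and 2 without each other array. The part of these cells in the changes of Aldh3b1, Akr1b8 and the other members was not tested. No marker passed among 9 of other leukocytes, 10 of endothelial and stellate cells and 8 of stomach, intestine and pancreas (limma; 1, 0 and 0 at an unadjusted p under 0.05).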

How the data were processed

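Total RNA of frozen liver from 3 HFD and 3 RD mice was prepared for GeneChip arrays with the maker's terminal labelling kit (per the labels' protocols). The deposited log2 values, 1 per probe set and array for 35512 probe sets, were used as deposited. The sources used here do not say how they were summarised or normalized. Their range was taken to mean logarithms of base 2. Array medians were 7.06 to 7.11. Arrays have no read depth, so precision rests on how many there are. Arrays of the same diet correlated across genes at r = 0.996 to 0.997, and arrays of different diets at 0.991 to 0.994.

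Probe sets were named through the platform annotation, which can be old. The 21789 with 1 symbol gave 19938 genes, keeping the brightest probe set of a gene. All 41 members matched a RefSeq gene (GRCm38.p6) by gene ID, and 0 symbols changed. Diet was the sole term of the model fitted to every gene by limma 3.58.1 in R 4.3.3. Its two-sided p-values were adjusted over all genes by the Benjamini-Hochberg method and called under 0.05. They weigh the difference between diets against the spread between the 3 samples of a diet. The fit draws each gene's spread toward a value estimated over all genes. Intervals are 95% from the moderated fit. The steps were tested on simulated data.

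Every member is named. The members that passed and the 2 brightest of each family are given array by array, as are some others picked after their values were seen, and up to 4 genes of smallest p are named from each other list. The members and lists were chosen with earlier results of these data known. Alternatives covered 2 scalings, the brighter genes, the mean of all probe sets, every row of the table, a trended robust prior, a block for the replicate number, an unmoderated model and each array left out. The same alternatives on the other lists were added after seeing the data.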

Additional observations from a re-analysis of the deposited data

How the results depend on the processing

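The full gene table had 621 genes higher and 446 lower in HFD. These counts became 168 and 173 when every row of the table was tested, 318 and 245 with the replicate number as a block, and 41 and 58 with an unmoderated linear model. They ran from 197 to 371 and from 178 to 273 when 1 array was left out. Of the members, 3 were higher and 3 lower. The unmoderated model gave 0 members higher, 0 aldehyde dehydrogenases higher and 1 lower, and 0 aldo-keto reductases higher. That 1 was Aldh9a1 (adjusted p = 0.047), which did not pass in the moderated fit, while Aldh1b1 (0.074) and Aldh1l1 (0.086) lost their calls. Higher aldo-keto reductases numbered 1 rather than 2 among the brighter genes, since Akr1b8 was too dim to be among the genes tested there. They also numbered 1 when every row was tested, where Akr1c19 lost its call (adjusted p = 0.086). With 1 array left out they numbered 1 to 2, the members higher 2 to 3 and the members lower 3. No alcohol dehydrogenase passed under any of these alternatives. Testing the brighter genes, testing every row, leaving out an array and dropping the moderation change the genes, tests, arrays or degrees of freedom by construction. The cause was otherwise not tested.

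The replicate numbers did not pair the arrays. Deviations from the group means correlated at -0.11, 0.00 and 0.12 across genes for same-numbered arrays and at -0.12 to 0.13 for the others. With the replicate block the counts of members stayed at 3 higher and 3 lower. Family medians of the log2 difference ran from -0.10 to -0.05 for the aldehyde dehydrogenases, -0.12 to -0.04 for the alcohol dehydrogenases and -0.06 to 0.04 for the aldo-keto reductases. Neither background in dim members nor a batch of arrays was tested, since no detection call or scan date was used here.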
